A study of Mus musculus with 6 samples.

Results

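Imprinted growth genes were measured by RNA sequencing in cultured primary mouse Sertoli cells, which line the seminiferous tubules and support germ cell development. The set held 10 genes, H19, Igf2, Dlk1, Meg3, Peg3, Mest, Grb10, Cdkn1c, Plagl1 and Ndn, out of 29275 gene identifiers in each library. Members were taken by symbol, and each symbol matched 1 Ensembl identifier. No cut-off on measured values selected them, but the list was chosen with earlier results of these data known. The libraries came from 3 cultures labelled as a conditional Arhgef15 knockout (cKO) and from 3 wild-type (WT) cultures. The knockout cultures carried a deletion of Arhgef15, a guanine nucleotide exchange factor gene, directed to Sertoli cells, and the WT cultures were labelled untreated. All 6 were kept in medium with serum and epidermal growth factor. The Cre driver, the deleted exons, the age of the animals and whether each culture came from a separate animal are not stated in the labels. The p-values below therefore cover only the spread from library to library.

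Imprinted genes are expressed mainly from 1 parental copy, which is set by DNA methylation laid down in the egg or the sperm. Many of them act on growth. Genes expressed from the father's copy, such as Igf2, Dlk1, Peg3, Mest, Plagl1 and Ndn, include promoters of fetal growth, while H19, Meg3, Cdkn1c and, in most tissues, Grb10 are expressed from the mother's copy and several of them restrain growth. Most are high in the fetus and decline after birth. The deposited values give 1 number per gene, so the parental copies were not separated.

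Values are FPKM, fragment numbers scaled to gene length and sequencing depth, which allow levels to be compared between genes. The spacing of neighbouring values put the depth at 16790000 to 20320000 fragments per library. WT replicate 3 stood apart: across the 12284 genes that passed the filter its log2 values correlated at 0.921 to 0.947 with the cKO libraries, and at 0.860 and 0.898 with WT replicates 1 and 2. The difference of each member is therefore also given without it. Since it was singled out for its likeness to the cKO libraries, leaving it out favours larger genotype differences. A result that passes only without it is therefore no separate support for a difference. Arhgef15 itself was at 0.501, 0.322 and 0.338 FPKM in cKO libraries, against 0.123, 0.0237 and 0.349 FPKM in WT libraries, and so was not lower in cKO libraries. The labels do not name the deleted exons, gene-level FPKM is therefore no check of the allele, and the group names are those of the labels. Sertoli cell markers were present in all 6 libraries, with Sox9 at 22.3, 24.1 and 35.6 FPKM in cKO libraries and at 5.97, 5.10 and 20.2 FPKM in WT libraries. Fshr, the receptor for follicle-stimulating hormone, was listed at 0 in WT replicates 1 and 2.

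Ndn and Grb10 were the most abundant members. Averaged over the 6 libraries, Ndn stood at 27.9 FPKM and Grb10 at 20.5 FPKM, at the 92.1 and 89.8 percentile of all identifiers. Plagl1 followed at 6.20 FPKM, H19 at 4.91 FPKM and Dlk1 at 2.46 FPKM. Peg3, Mest and Meg3 lay close together at 1.43, 1.19 and 1.16 FPKM. Cdkn1c averaged 0.630 FPKM and Igf2 0.0632 FPKM. Only some steps of this order held in all libraries: Grb10 was above Plagl1, and Cdkn1c above Igf2, in 6 of 6 libraries, and Ndn was above Grb10 in 5 of 6. Each of the other neighbours in the order was in that order in 3 or 4 of 6 libraries and was not separated by the spread. Testing was limited to genes that reached 1 FPKM in 3 or more libraries. This kept 8 members, while Cdkn1c and Igf2 lay below the limit.

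**Figure D1:**
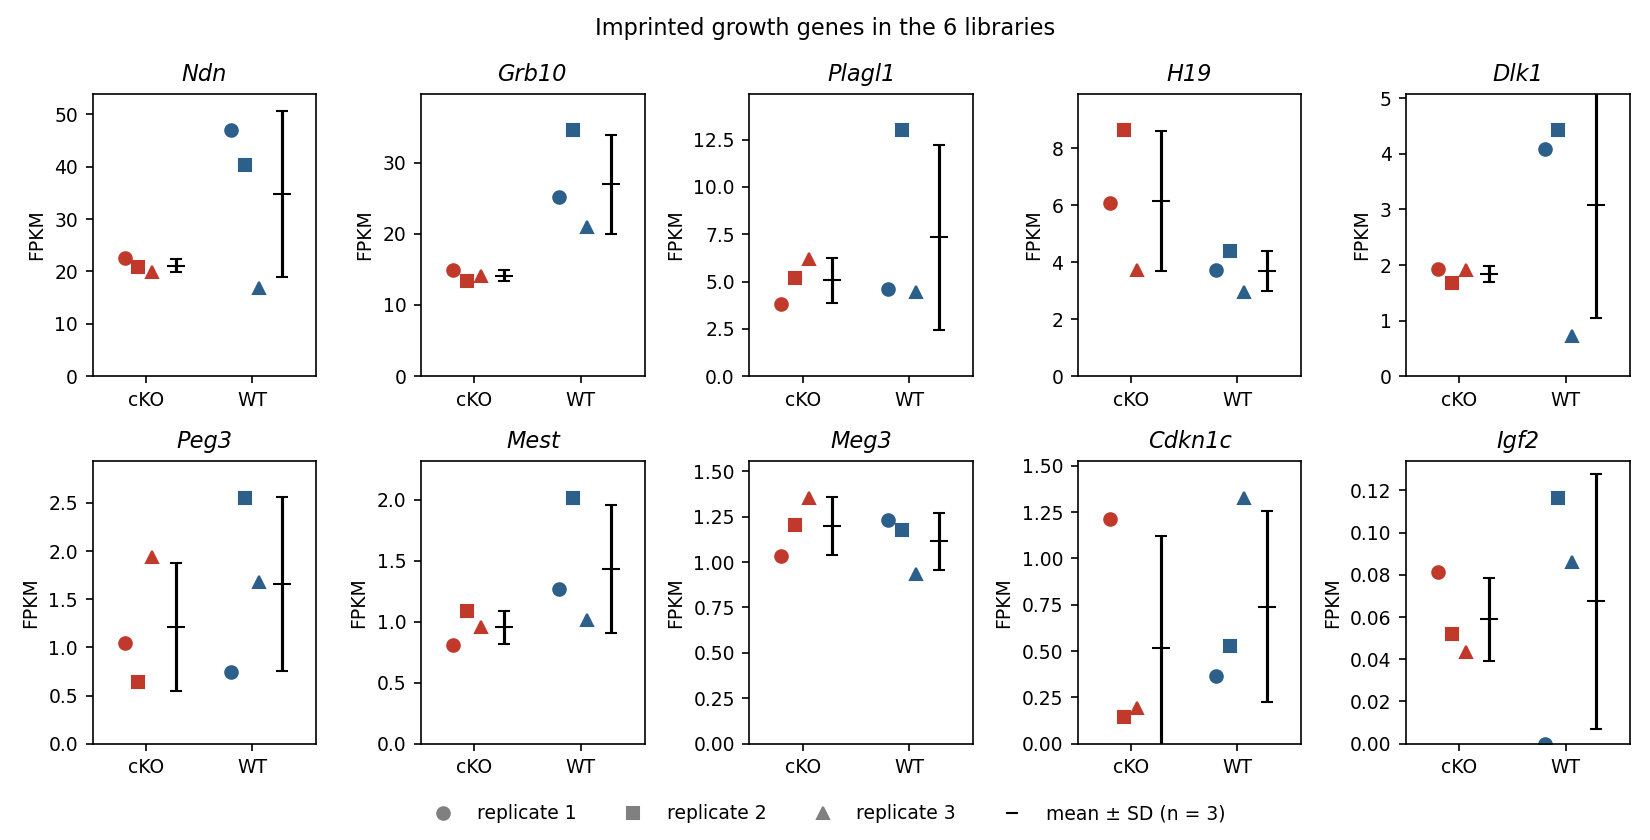
FPKM (vertical axes, linear from 0) of the 10 imprinted growth genes in order of their mean level, with cKO libraries in red on the left, WT libraries in blue on the right and marker shape for the replicate number; black bars are the mean ± SD (n = 3), and the cKO bar of Cdkn1c is cut at 0. The 3 cKO values of Grb10, 13.4 to 14.9 FPKM, lie below all 3 WT values, 21.0 to 34.5 FPKM, while for Ndn and Dlk1 WT replicate 3 is the lowest library.

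Grb10 (ENSMUSG00000020176) showed the lowest knockout level relative to wild type among the members. It encodes an adaptor protein that binds the insulin and IGF1 receptors and restrains their signal. Grb10 was at 14.9, 13.4 and 14.1 FPKM in cKO replicates 1, 2 and 3, against 25.2, 34.5 and 21.0 FPKM in WT replicates 1, 2 and 3. All 3 cKO libraries lay below all 3 WT libraries, and the cKO values were close to each other while the WT values were spread. The means were 14.1 ± 0.739 FPKM in cKO and 26.9 ± 6.91 FPKM in WT libraries (SD, n = 3 each), a ratio of 0.524. On the log2(FPKM + 1) scale, which understates changes of low genes, the difference was -0.86 with an SE of 0.23 and a 95% interval from -1.39 to -0.33. It did not pass the threshold of 0.05 over 12284 genes (limma, Benjamini-Hochberg adjusted p = 0.545; unadjusted p = 0.00620). The two-sided exact permutation p was 0.1, the smallest that 3 against 3 allows. Without WT replicate 3 the difference was -1.02 with an SE of 0.21 and passed (limma, adjusted p = 0.0474), within a range of 0.0474 to 1.00 over the 14 alternative settings run. That omission raised the number of all genes that passed from 2 to 478. Groups without overlap were found in 11.3% of all tested genes, in 5.01% with the cKO libraries below and in 6.28% with them above.

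The sequences around the starts of Grb10, Ndn and Dlk1 are shown because these were the members with the largest differences once WT replicate 3 was left out. CpG dinucleotides, the sites where imprints are written as methylation, are in capitals. Each sequence runs 5′ to 3′ on the gene's strand, from 250 bases before the start to 50 after it, as given by RefSeq on GRCm38.p6.
Grb10, upstream start: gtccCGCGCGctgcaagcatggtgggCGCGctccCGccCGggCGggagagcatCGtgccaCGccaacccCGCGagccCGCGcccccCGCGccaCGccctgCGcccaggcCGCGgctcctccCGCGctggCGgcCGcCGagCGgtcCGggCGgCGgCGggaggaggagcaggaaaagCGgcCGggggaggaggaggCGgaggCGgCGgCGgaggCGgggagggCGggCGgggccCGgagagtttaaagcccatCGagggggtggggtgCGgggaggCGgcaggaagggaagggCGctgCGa
Grb10, downstream start: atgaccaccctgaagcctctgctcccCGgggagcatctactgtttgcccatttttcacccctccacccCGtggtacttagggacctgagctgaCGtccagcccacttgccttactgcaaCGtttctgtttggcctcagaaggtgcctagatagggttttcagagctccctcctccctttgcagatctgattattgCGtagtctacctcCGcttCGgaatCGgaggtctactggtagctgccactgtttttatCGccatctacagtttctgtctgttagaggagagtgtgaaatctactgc
Ndn: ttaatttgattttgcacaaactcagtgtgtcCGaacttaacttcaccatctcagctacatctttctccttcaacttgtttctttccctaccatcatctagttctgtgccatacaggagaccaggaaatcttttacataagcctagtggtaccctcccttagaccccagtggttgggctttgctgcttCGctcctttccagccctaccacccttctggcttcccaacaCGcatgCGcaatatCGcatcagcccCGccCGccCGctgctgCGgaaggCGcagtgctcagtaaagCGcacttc
Dlk1: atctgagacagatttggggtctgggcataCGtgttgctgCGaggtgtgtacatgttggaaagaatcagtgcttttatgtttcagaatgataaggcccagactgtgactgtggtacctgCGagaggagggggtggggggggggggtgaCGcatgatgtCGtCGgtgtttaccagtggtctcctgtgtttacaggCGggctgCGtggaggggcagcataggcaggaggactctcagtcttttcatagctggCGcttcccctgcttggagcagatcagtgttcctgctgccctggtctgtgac
The upstream Grb10 start, at chr11:12037371-12037670 on the minus strand, held 45 CpGs, more than in 98.1% of 32851 promoters of this length. The downstream Grb10 start, at chr11:12027922-12028221, held 9. The Ndn window at chr7:62348027-62348326 held 11 and the Dlk1 window at chr12:109452573-109452872 held 9, both on the plus strand, where the median promoter held 7. The letters TGCCGC, which the imprint-maintenance protein ZFP57 binds when methylated, were searched on both strands. There was 1 match in the upstream Grb10 window and 0 in each of the other windows, and 11.6% of all promoters held them. The letters TATAAA were in none of the 4 windows, against 13.6% of all promoters, searched likewise. RefSeq starts were at hand for 8 of the 10 members, and not for H19 and Cdkn1c. Such matches describe the sequence and say nothing of use in these cells, where neither methylation nor start use was measured.

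Ndn (ENSMUSG00000033585), which encodes necdin, a MAGE family protein that restrains proliferation and is best known from neurons, was lower in the cKO libraries than in WT replicates 1 and 2. It was at 22.5, 20.9 and 20.0 FPKM in cKO replicates 1, 2 and 3, against 47.0, 40.4 and 16.9 FPKM in WT replicates 1, 2 and 3. WT replicate 3 was the lowest of the 6 libraries, so the groups overlapped. The means were 21.1 ± 1.27 FPKM in cKO and 34.7 ± 15.8 FPKM in WT libraries (SD, n = 3 each). The log2 difference was -0.57 with an SE of 0.37 and did not pass (limma, adjusted p = 0.815; exact permutation p = 0.4). Without WT replicate 3 it was -1.01 with an SE of 0.18 and passed (limma, adjusted p = 0.0349), within a range of 0.0349 to 1.00 over 14 alternatives. Necdin and Grb10 thus passed under the same omission, but Grb10 in WT replicate 3 lay above all cKO libraries and Ndn in that library lay below all of them.

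Dlk1 and Meg3 are neighbours in 1 imprinted domain on chromosome 12, expressed from opposite parental copies. Dlk1 (ENSMUSG00000040856) encodes a transmembrane protein related to Notch ligands, released as a growth-modulating ectodomain, and marks immature cells of several lineages. It was at 1.92, 1.67 and 1.91 FPKM in cKO libraries, against 4.09, 4.42 and 0.731 FPKM in WT replicates 1, 2 and 3. WT replicates 1 and 2 were above every cKO library and WT replicate 3 was below every one. The log2 difference was -0.36 with an SE of 0.44 (limma, adjusted p = 0.901). It was -0.89 without WT replicate 3 (adjusted p = 0.0629) and -0.07 without WT replicate 2, within adjusted p of 0.0629 to 1.00 over 14 alternatives. Meg3 (ENSMUSG00000021268), a long noncoding RNA with growth-suppressing activity, was the most even member. It was at 1.04, 1.20 and 1.35 FPKM in cKO libraries, against 1.23, 1.18 and 0.936 FPKM in WT libraries. Its log2 difference was 0.06, with a 95% interval from -0.42 to 0.53 (limma, adjusted p = 0.967). The sign turned with quantile normalization (-0.04) and without WT replicate 3 (-0.0063). The level of Meg3 minus that of Dlk1 was taken on the log2(FPKM + 1) scale, which understates differences between low genes. It was -0.52, -0.28 and -0.31 in cKO libraries, against -1.19, -1.32 and 0.16 in WT replicates 1, 2 and 3. Meg3 was thus below Dlk1 in all libraries but WT replicate 3. On this scale the genotypes were not separated beyond the spread (exact permutation p = 0.4, two-sided).

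H19, Igf2 and Cdkn1c lie together on distal chromosome 7, where H19 and Igf2 share enhancers and are read from opposite parental copies. H19 (ENSMUSG00000000031), a long noncoding RNA that restrains growth and hosts a microRNA, was the only member besides Meg3 with a higher mean in cKO libraries. It was at 6.06, 8.62 and 3.72 FPKM in cKO replicates 1, 2 and 3, against 3.71, 4.38 and 2.96 FPKM in WT replicates 1, 2 and 3. The cKO replicates 1 and 2 were above every WT library, while cKO replicate 3 lay within the WT range. The means were 6.13 ± 2.45 FPKM in cKO and 3.68 ± 0.708 FPKM in WT libraries (SD, n = 3 each). The log2 difference, 0.56 with an SE of 0.30, did not pass (limma, adjusted p = 0.770; exact permutation p = 0.2). It was 0.44 without WT replicate 3 and 0.31 without cKO replicate 2, the highest library.

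Igf2 (ENSMUSG00000048583), the paternally expressed fetal growth factor that signals through the IGF1 and insulin receptors, was near the limit of detection in both genotypes. It was at 0.0811, 0.0520 and 0.0435 FPKM in cKO libraries, against 0, 0.116 and 0.0860 FPKM in WT libraries. These values rested on 9, 5 and 5 fragments in cKO and on 0, 13 and 10 fragments in WT libraries. A count of 0 in WT replicate 1 allows a level of up to 0.0280 FPKM, the worth of 3 fragments. No genotype difference was detectable at this depth, with a log2 difference of -0.01 (limma over all 29275 genes, adjusted p = 0.979), and it was 0.0029 without WT replicate 3. H19 exceeded Igf2 in 6 of 6 libraries, by 2.71, 3.19 and 2.18 on the log2(FPKM + 1) scale in cKO libraries and by 2.23, 2.27 and 1.87 in WT libraries (exact permutation p = 0.3 for the difference between genotypes, two-sided). Since Igf2 was close to 0 on this scale, the level of H19 minus that of Igf2 followed the H19 values.

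Cdkn1c (ENSMUSG00000037664), which encodes the cyclin-dependent kinase inhibitor p57, varied within both genotypes. It was at 1.21, 0.146 and 0.195 FPKM in cKO replicates 1, 2 and 3, against 0.366, 0.528 and 1.33 FPKM in WT replicates 1, 2 and 3. The fragment numbers were 48, 5 and 8 in cKO libraries, with exact Poisson 95% intervals of 35.4 to 63.6, 1.62 to 11.7 and 3.45 to 15.8. In WT libraries they were 14, 21 and 55, with intervals of 7.65 to 23.5, 12.999 to 32.1 and 41.4 to 71.6. Counting error is all that these intervals cover. The fragment numbers of Igf2 and Cdkn1c were recovered within 0.05 of a whole number from the exonic lengths of the GENCODE M21 annotation. The highest cKO and the highest WT library were separated from the other libraries of their group by more than these intervals, so the variation within genotypes was wider than counting error. The log2 difference was -0.23 with an SE of 0.34 (limma over all 29275 genes, adjusted p = 0.925) and 0.0027 without WT replicate 3. On the log2(FPKM + 1) scale Cdkn1c minus Igf2 was 1.03, 0.12 and 0.20 in cKO libraries, against 0.45, 0.45 and 1.10 in WT libraries (exact permutation p = 0.5, two-sided). Igf2 was close to 0 on this scale, so this comparison followed the Cdkn1c values.

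Plagl1 and Peg3 encode zinc finger transcription factors. Plagl1 (ENSMUSG00000019817), known to regulate other imprinted genes, Igf2, H19, Dlk1 and Cdkn1c among them, was at 3.81, 5.20 and 6.17 FPKM in cKO libraries, against 4.58, 12.98 and 4.45 FPKM in WT libraries. WT replicate 2 alone stood above the rest, and the other WT libraries lay within the cKO range. The log2 difference was -0.33, its SE 0.40 (limma, adjusted p = 0.900). It turned to 0.12 without WT replicate 2 and was -0.56 without WT replicate 3. Peg3 (ENSMUSG00000002265), known for effects on growth and maternal behaviour in mice, was at 1.05, 0.639 and 1.94 FPKM in cKO libraries, against 0.748, 2.55 and 1.68 FPKM in WT libraries. The highest value was again that of WT replicate 2, and the genotypes overlapped over most of their span. Its log2 difference was -0.25 with an SE of 0.34 (limma, adjusted p = 0.907), and it was -0.01 without WT replicate 2 and -0.22 without WT replicate 3.

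Mest (ENSMUSG00000051855), also called Peg1, encodes a hydrolase-like protein of the endoplasmic reticulum linked to growth and fat storage. It was at 0.811, 1.09 and 0.959 FPKM in cKO libraries, against 1.27, 2.01 and 1.01 FPKM in WT libraries. WT replicate 3 lay within the cKO range and the other WT libraries above it. The log2 difference was -0.30 with an SE of 0.23 (limma, adjusted p = 0.853), and -0.42 without WT replicate 3. Mest overlaps Copg2, a vesicle coat gene, on the opposite strand. Copg2 was at 11.1, 5.72 and 7.12 FPKM in cKO libraries, against 5.07, 5.45 and 16.2 FPKM in WT libraries, and without a stated strand setting their shared fragments cannot be told apart. Igf2 overlaps the antisense gene Igf2os, which was at no more than 0.0280 FPKM in any library.

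Over the 8 tested members, 0 passed the threshold with all 6 libraries (limma), where 2 of 12284 genes did (0.0163%). At an unadjusted p under 0.05 there was 1 member, Grb10, against 6.81% of all tested genes. The log2 difference was below 0 for 6 of 8 members, against 40.2% of all tested genes, and the median was -0.31, against 0.08 for all tested genes. The same medians were -0.49 and 0.11 without WT replicate 3, and that of the members was -0.04 without WT replicate 2. Without WT replicate 3, 2 of 8 members passed, both lower, while 3.89% of all genes passed in either direction, 1.42% lower and 2.47% higher. Marker lists of testis cell types, described below, also held such calls. Lower were 4 of 14 tested macrophage, 3 of 7 myoid, 2 of 10 stromal, 1 of 5 Leydig and 1 of 20 Sertoli markers. Higher were 9 of 20 Sertoli, 3 of 9 endothelial and 1 of 5 Leydig markers. No germ cell marker was called. WT replicate 3 was the lowest of the 6 libraries for 4 of 8 members, H19, Dlk1, Meg3 and Ndn, against 20.3% of all tested genes, and it lay inside the cKO range for 3 of 8, Peg3, Mest and Plagl1, against 41.5%.

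**Figure D2:**
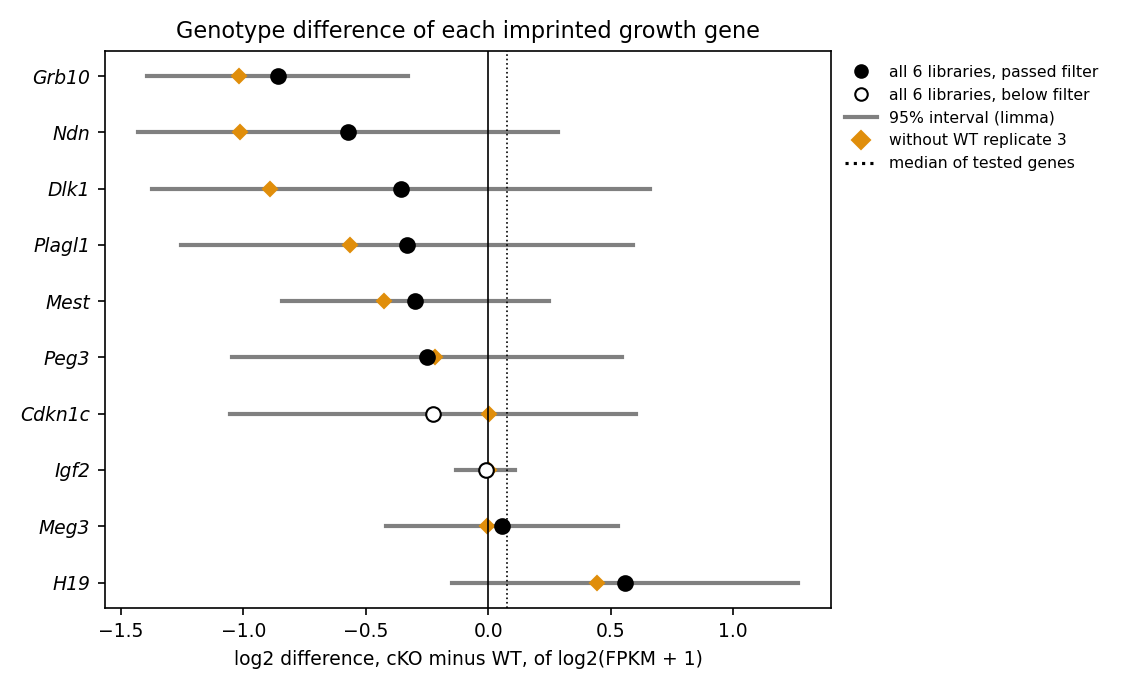
Differences of log2(FPKM + 1), cKO minus WT (horizontal axis), for each member, with limma's 95% interval in grey; filled circles passed the filter, open circles did not, and orange diamonds leave out WT replicate 3. The Grb10 interval, -1.39 to -0.33, is the one that does not reach 0, and the diamonds of Ndn and Dlk1 move to -1.01 and -0.89.

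**Figure D3:**
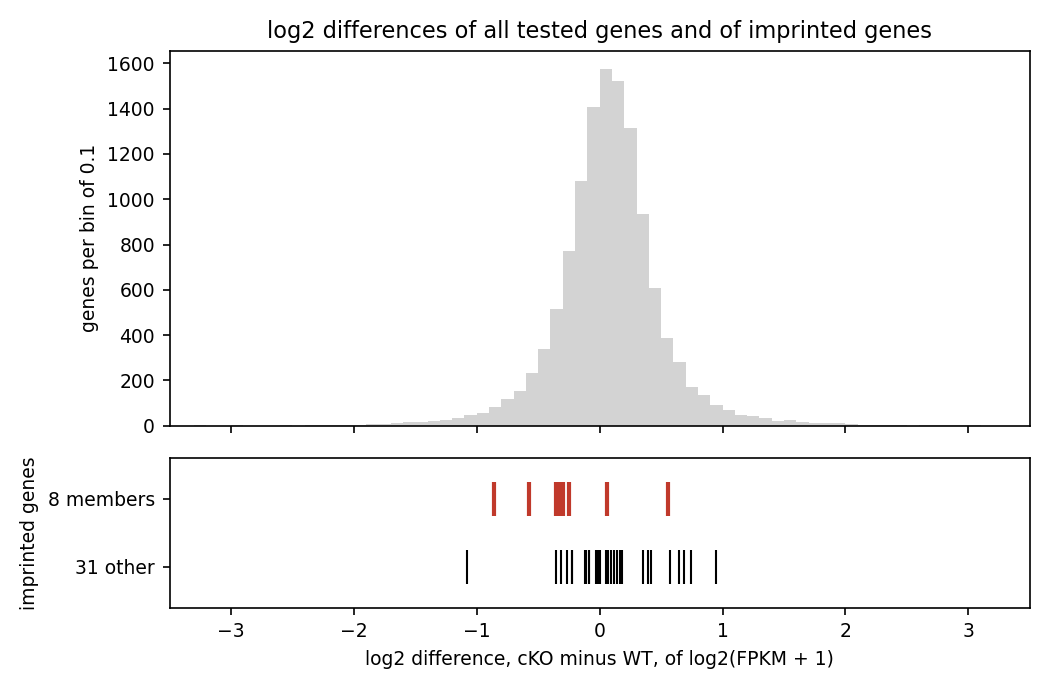
Number of genes per bin of 0.1 (upper panel) over the log2 difference, cKO minus WT, for the 12284 tested genes, with ticks below for the 8 tested members and 31 other tested imprinted genes. Of the members, 6 lie left of 0 and 2 right of it, and the other imprinted genes lie on both sides.

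Other imprinted genes did not show a common direction. Of 61 listed, 57 were in the files and 31 were tested. Of these 17 had log2 differences above 0 and 14 below, with a median of 0.06, against 0.08 for all tested genes, and 0 passed with limma (1 at an unadjusted p under 0.05, and 0 without WT replicate 3). Over all tested genes, 40.2% had differences below 0 and 6.81% had an unadjusted p under 0.05 (limma). Gnas, which encodes the stimulatory G protein subunit, had 6.44, 5.06 and 6.51 FPKM in cKO libraries, against 3.44, 3.31 and 1.47 FPKM in WT libraries. All cKO values were above all WT values (log2 difference 0.95, SE 0.29, limma adjusted p = 0.607). Nnat, the neuronatin gene, also did not overlap, at 1.27, 1.50 and 1.47 FPKM in cKO and 0.846, 0.617 and 1.24 FPKM in WT libraries (adjusted p = 0.803). Commd1, named for the opposite order, was at 1.58, 1.63 and 1.76 FPKM in cKO and 1.87, 2.78 and 2.30 FPKM in WT libraries. Of the 31 tested, 2 lay above and 1 below without overlap, against 6.28% and 5.01% of all tested genes. Tssc4 was at 17.3 ± 2.14 FPKM in cKO and 11.4 ± 5.58 FPKM in WT libraries, and Ppp1r9a at 1.67 ± 0.554 and 0.782 ± 0.939 FPKM in the same order (SD, n = 3 each; adjusted p = 0.755 and 0.778).

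Genes beside the members in the same imprinted domains were read side by side with them. Dio3, a thyroid hormone deiodinase gene at the far end of the Dlk1 domain, was at 0.737, 0.323 and 3.63 FPKM in cKO libraries, against 5.23, 13.1 and 0.145 FPKM in WT replicates 1, 2 and 3. As for Dlk1, WT replicate 3 was the lowest library and WT replicates 1 and 2 the highest. Its log2 difference was -1.08 with an SE of 0.90 (limma, adjusted p = 0.864), and -2.09 without WT replicate 3 (adjusted p = 0.0996). Rian, a noncoding RNA of that domain read from the mother's copy like Meg3, was at 1.24, 0.957 and 1.13 FPKM in cKO and 1.45, 2.58 and 1.23 FPKM in WT libraries. Near Ndn, Peg12 was at 2.50, 3.61 and 4.07 FPKM in cKO libraries, against 4.18, 4.49 and 1.90 FPKM in WT libraries, again with WT replicate 3 lowest. Snrpn, Ube3a and Mkrn3 of that domain went otherwise, with WT replicate 3 the highest WT library for each. Snrpn was at 3.78, 2.04 and 1.91 FPKM in cKO and 2.87, 2.66 and 3.76 FPKM in WT libraries. Ube3a was at 2.16, 2.82 and 4.65 FPKM in cKO and 1.73, 3.28 and 4.20 FPKM in WT libraries. Mkrn3, below the filter, was at 0.729, 0.655 and 0.547 FPKM in cKO and 0.482, 0.624 and 0.657 FPKM in WT libraries. Near Grb10, Ddc was below the filter at 0.150, 0.107 and 0.212 FPKM in cKO and 0.359, 0.287 and 0.309 FPKM in WT libraries. Cobl, on the other flank of Grb10, was also below the filter, at 1.11 ± 0.490 FPKM in cKO and 0.864 ± 0.0158 FPKM in WT libraries. These neighbours were picked from genes near the members after their values had been seen, and not every neighbour is given.

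**Figure D4:**
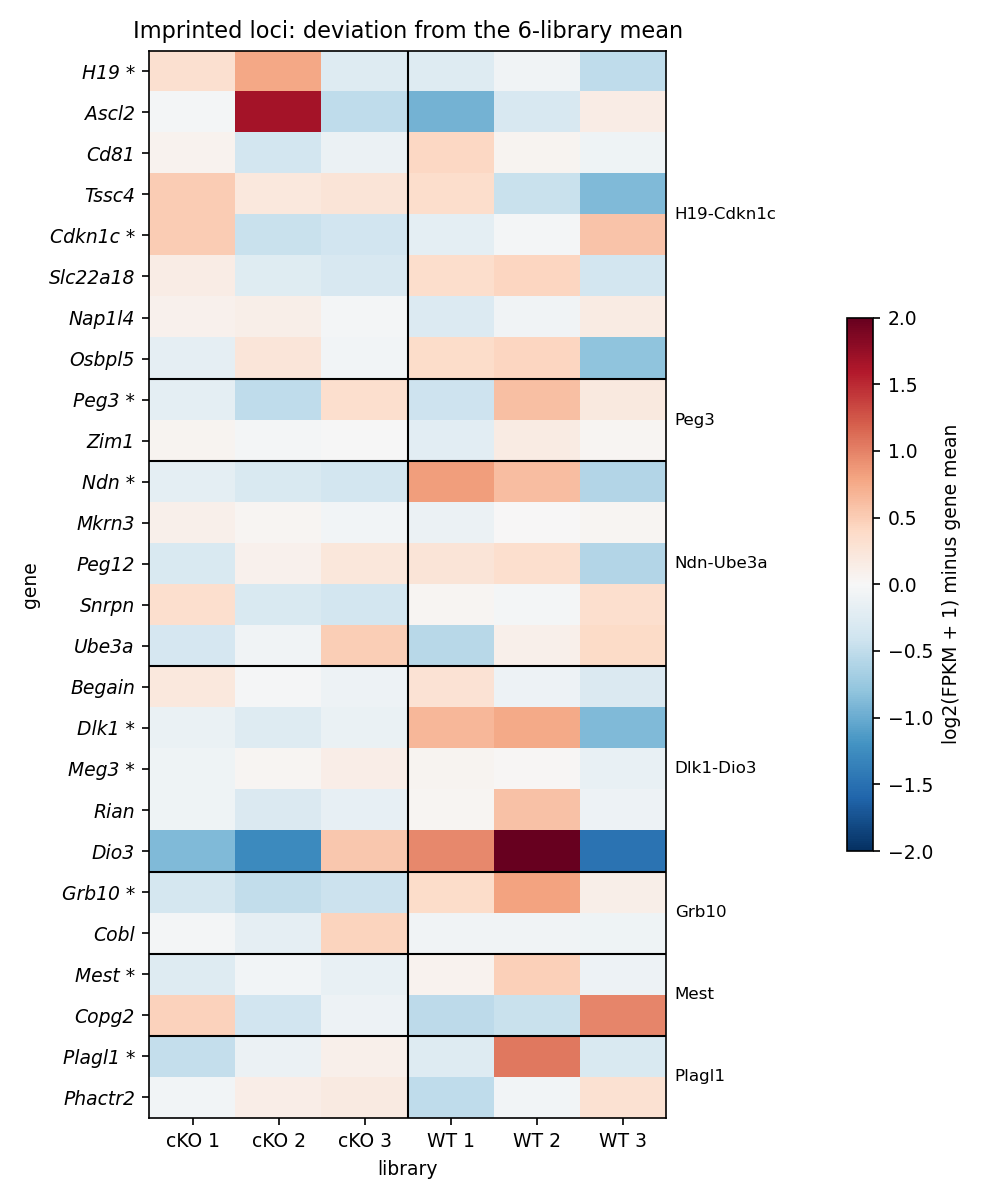
Deviation of log2(FPKM + 1) from each gene's 6-library mean (colour, red above and blue below) for members (asterisks) and neighbouring imprinted genes with a mean of at least 0.3 FPKM, grouped by locus, with cKO libraries left of the line and WT libraries right of it. Grb10 is blue in all 3 cKO libraries, and Ndn, Dlk1 and Dio3 are red in WT replicates 1 and 2 and blue in WT replicate 3.

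Genes that set or keep imprints in place were measured as well. Of 18 such genes 14 were tested, 11 with log2 differences above 0 and 3 below, with a median of 0.37, and 0 passed with limma (1 at an unadjusted p under 0.05, Tet3). Over all tested genes, 40.2% had differences below 0, the median was 0.08 and 6.81% had an unadjusted p under 0.05 (limma). Zfp57, which guards methylation at imprinted control regions, was at 1.73, 2.20 and 1.80 FPKM in cKO libraries, against 2.92, 3.14 and 2.77 FPKM in WT libraries. All cKO values were below all WT values (log2 difference -0.44, SE 0.20, limma adjusted p = 0.748). Dnmt1, named for the opposite order, was at 29.5, 31.7 and 33.4 FPKM in cKO and 25.2, 27.9 and 20.2 FPKM in WT libraries (limma adjusted p = 0.770). Of the 14 tested, 1 lay above and 1 below without overlap, against 11.3% of all tested genes in either direction. Tet3, an enzyme that oxidises methylcytosine, was at 3.46 ± 0.760 FPKM in cKO and 1.75 ± 0.951 FPKM in WT libraries (SD, n = 3 each; adjusted p = 0.727). The de novo methyltransferase gene Dnmt3a was at 3.63 ± 0.615 FPKM in cKO and 2.35 ± 0.900 FPKM in WT libraries (adjusted p = 0.770). Setdb1, a histone methyltransferase gene, was at 10.3 ± 0.597 FPKM in cKO and 7.14 ± 2.58 FPKM in WT libraries (adjusted p = 0.761).

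Igf2 and Grb10 act in the insulin-like growth factor axis, whose other genes were measured in the same libraries. Of 16 genes 12 were tested, 7 above and 5 below 0 with a median of 0.16, and 0 passed with limma (0 at an unadjusted p under 0.05). Over all tested genes, 40.2% were below 0, the median was 0.08 and 6.81% had an unadjusted p under 0.05 (limma). Without WT replicate 3, 2 of the 12 were called (limma), both lower, against 3.89% of all tested genes in either direction and 1.42% lower. Igf1, the ligand best known for growth after birth, was at 2.03, 1.88 and 4.31 FPKM in cKO libraries, against 11.1, 15.3 and 2.24 FPKM in WT libraries. WT replicate 3 lay within the cKO range (log2 difference -1.27, limma adjusted p = 0.755, and -1.97 with adjusted p = 0.0280 without WT replicate 3). Igfbp4, a binding protein gene, was at 51.4, 28.7 and 32.1 FPKM in cKO libraries, against 108.5, 156.2 and 30.6 FPKM in WT libraries (adjusted p = 0.755, and 0.0280 without WT replicate 3). Igfbp6, whose product prefers IGF2, was at 77.6 ± 17.0 FPKM in cKO and 144.4 ± 78.3 FPKM in WT libraries (SD, n = 3 each; adjusted p = 0.790), and Irs2 at 6.47 ± 1.76 FPKM in cKO and 4.30 ± 1.33 FPKM in WT libraries (adjusted p = 0.779). Igf2r, the imprinted receptor that clears IGF2, was at 14.7, 11.2 and 11.6 FPKM in cKO libraries, against 5.84, 12.0 and 17.7 FPKM in WT libraries, named for its role after its values were seen. Of 18 cell cycle genes, on which p57 acts, all were tested, 10 above and 8 below 0 with a median of 0.07, and 0 passed with limma (0 at an unadjusted p under 0.05). The shares over all tested genes were those given for the axis. Among the cell cycle genes Cdk2, the kinase p57 inhibits, was at 9.68 ± 0.875 FPKM in cKO and 7.67 ± 1.61 FPKM in WT libraries (SD, n = 3 each; adjusted p = 0.829).

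Markers of testis cell types were summed in each library. Among these cell type lists, only the peritubular myoid sums had the order of Ndn and Dlk1. There WT replicates 1 and 2 were above every cKO library and WT replicate 3 was below every one. The sums of the 18 cell cycle genes had this order as well. They were 574.0, 587.8 and 593.7 FPKM in cKO libraries, against 717.6, 685.8 and 447.7 FPKM in WT replicates 1, 2 and 3. In bulk RNA, fewer cells of a type and less RNA per cell cannot be told apart. Macrophage markers summed to 206.1 to 353.7 FPKM in cKO libraries, against 1439, 1161 and 322.9 FPKM in WT replicates 1, 2 and 3, and 13 of 14 tested markers had differences below 0. For this and the other marker lists, the share below 0 over all tested genes was 40.2%. Peritubular myoid markers summed to 835.3, 958.8 and 1534 FPKM in cKO libraries, against 3684, 2882 and 598.5 FPKM in WT replicates 1, 2 and 3, with 5 of 7 below 0. As for Ndn, WT replicate 3 had the lowest myoid sum of the 6 libraries. Abundant genes weighed most in these sums, with Acta2 at 2853 and Lyz2 at 647.8 FPKM in WT replicate 1. In the mean log2 level over the myoid list, cKO replicate 3 (6.16) was above WT replicate 2 (5.99). By that measure WT replicate 3 (4.94) was above cKO replicate 2 (4.49). Myh11 and Des, named after their values were seen, averaged 15.1 and 27.2 FPKM in cKO libraries. Their WT means were lower, at 9.05 and 20.2 FPKM. Stromal markers summed to 797.3, 746.1 and 1187 FPKM in cKO libraries, against 1026, 1445 and 668.2 FPKM in WT libraries, with 8 of 10 below 0 and again WT replicate 3 lowest. No macrophage, myoid or stromal marker was listed at 0 in any library.

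Leydig cell markers summed to 143.0 to 243.4 FPKM in cKO and 200.4 to 374.8 FPKM in WT libraries, with 4 of 5 tested below 0, against 40.2% of all tested genes. Cyp17a1 was at 0 in WT replicate 2. Sertoli markers summed to 843.3, 653.1 and 994.2 FPKM in cKO libraries, against 365.3, 369.2 and 931.9 FPKM in WT replicates 1, 2 and 3, with 15 of 20 above 0; Fshr was at 0 in WT replicates 1 and 2 and Defb45 in WT replicate 1. Endothelial markers summed to 64.2 to 112.9 FPKM in cKO and 32.5 to 70.1 FPKM in WT libraries, with 9 of 9 above 0 and none at 0. Germ cell markers summed to 259.1, 51.4 and 20.7 FPKM in cKO libraries, against 106.2, 50.3 and 194.1 FPKM in WT libraries, with 3 of 8 above 0. Acrv1 was at 0 in cKO replicates 2 and 3, Stra8 in WT replicate 1 and Izumo1 in WT replicate 2. In the Cdkn1c values, the highest libraries, cKO replicate 1 and WT replicate 3, were also the highest for germ cell markers. The part of these cell types in the Grb10, Ndn, Dlk1 and Cdkn1c values was not tested.

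**Figure D5:**
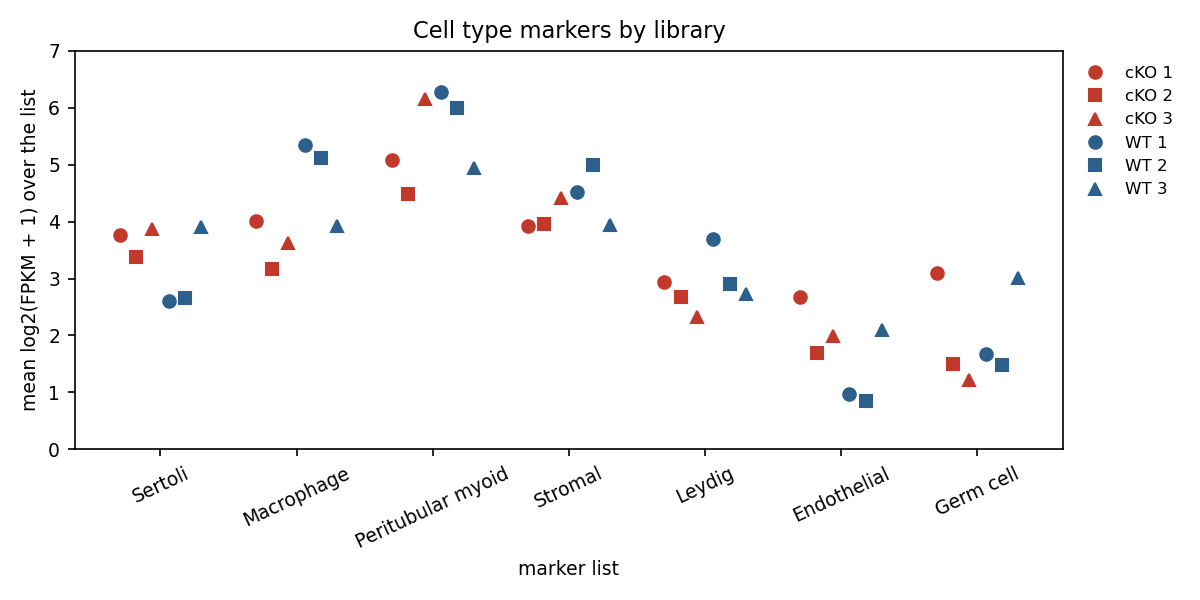
Mean log2(FPKM + 1) over each cell type marker list (vertical axis from 0), 1 point per library, with cKO in red, WT in blue and marker shape for the replicate number. For the macrophage list the cKO libraries lie at 3.17 to 4.02, and WT replicate 3 at 3.91 lies among them while WT replicates 1 and 2 are at 5.35 and 5.12.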

How the data were processed

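RNA from 6 cultures of primary Sertoli cells was analysed, 3 cKO and 3 WT, grouped by the genotype in their titles. The submitters' processing notes name HISAT2 2.1.0, FastQC and the genome build mm8. No label names a counting tool, an annotation or a strand setting. The deposited files hold 1 value per gene, taken as FPKM from its sums and spacing because no label states the unit. Gene symbols came from a GENCODE M21 table, which matched 28932 of 29275 identifiers. Some identifiers are absent from it, so the named build is uncertain and only RefSeq promoter coordinates on GRCm38.p6 are given.

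Depth was fitted as the fragment total that made FPKM times exonic length whole in genes of 1 exon, over values of at most 10 fragments. Of these, 99.0% to 99.4% were whole within 0.02 times their fragment number. Count models were not applied, as FPKM are normalized values. Values were transformed to log2(FPKM + 1). The 12284 genes that reached 1 FPKM in 3 or more libraries were fitted with limma 3.58.1 in R 4.3.3 (eBayes with trend, genotype only, two-sided, Benjamini-Hochberg adjusted p under 0.05). Members below the filter were fitted with all 29275 genes. Exact permutation tests and tables used Python 3.11.15 and scipy 1.17.1. Counting intervals are exact Poisson at 95%.

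Named genes were the 10 members and, of each other list, up to 4 tested genes with the smallest p; exceptions are marked. Members and lists were chosen with earlier results of these data known. Alternatives were pseudocounts 0.1 and 5, no filter, a filter at 5 FPKM, median-ratio and quantile scaling, array weights, a replicate block, a threshold of 0.1 and each library left out. Over the tested genes the median log2 difference was 0.08.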

Additional observations from a re-analysis of the deposited data

How the results depend on the processing

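Grb10, Ndn, Dlk1, Mest, Peg3 and H19 kept their direction in all 14 alternative settings, with log2 differences of -1.02 to -0.67, -1.01 to -0.30, -0.89 to -0.07, -0.50 to -0.11, -0.52 to -0.01 and 0.31 to 0.83. The 2 changes of filter and the replicate block cannot alter a gene's log2 difference, so they are no check of direction. Leaving out 1 library at a time moved Grb10 between -1.02 and -0.67 and Ndn between -1.01 and -0.30, and both passed the threshold only without WT replicate 3. It moved Plagl1 between -0.56 and 0.12, Meg3 between -0.0063 and 0.11, Igf2 between -0.057 and 0.023 and Cdkn1c between -0.53 and 0.0027. Quantile normalization turned Meg3 to -0.045 (adjusted p = 0.990). The cause of these turns was not tested. The count of members past the threshold was 0 to 2 with 1 library left out, and the count of all genes 0 to 478: 478 without WT replicate 3, 4 without WT replicate 1 and 0 without WT replicate 2 or any 1 cKO library, against 2 with all libraries (limma). With no filter the count of all genes was 0, and with the replicate block it was 0 as well. Other imprinted genes past the threshold stayed at 0 in all settings run. Replicate numbers were not treated as pairs: deviations of same-numbered cKO and WT libraries correlated at 0.14, 0.03 and -0.21 across genes, and no member passed with the block (Grb10 -0.86, adjusted p = 0.545). With 3 libraries a group, exact permutation tests cannot go below 0.1. Depth limits Igf2 and Cdkn1c, which rested on 0 to 13 and 5 to 55 fragments.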

Other observations

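Peg10, a retrotransposon-derived imprinted gene outside the member set, overlapped between genotypes with a wide spread. It was at 11.7, 12.1 and 32.0 FPKM in cKO replicates 1, 2 and 3, against 5.39, 10.4 and 21.7 FPKM in WT replicates 1, 2 and 3. Its log2 difference was 0.58 (limma, adjusted p = 0.880). Ascl2, an imprinted transcription factor gene on distal chromosome 7, was at 5.73 FPKM in cKO replicate 2, the library where H19 was also highest, with the other cKO libraries at 1.05 and 0.491 FPKM, against 0.0986, 0.695 and 1.33 FPKM in WT libraries. Both genes were chosen after their values were seen.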
